A study of Mus musculus with 42 samples.

Results

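The Iroquois homeobox genes Irx1, Irx2, Irx3, Irx4, Irx5 and Irx6 were followed across the differentiation of mouse embryonic stem cells (mESCs) towards anterior definitive endoderm (ADE). All array probes whose RefSeq accession belongs to one of these genes were taken, whatever their signal, which gave 7 probes for the 6 genes, of 55681 probes and 20972 named genes in all. Irx2 had 2 probes and every other member had 1. The rule itself uses no measured value. Irx3 and Irx5 rose at d2 and again at d6, and were called higher after inhibition of PRC2 during differentiation. After inhibition before differentiation both were also higher but not called, and no member was called between these regimens. Irx1 was called only after inhibition during differentiation, and Irx2 fell by d6 at 1 of its probes. Irx4 and Irx6 were not called in any comparison of the main fit.

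Total RNA was measured on 42 one-colour arrays, with 3 arrays from independent experiments in each of 14 groups. The p-values given here rest on the spread between experiments within groups, pooled for each probe over all 14 groups. They do not measure the spread of the 2 compared groups alone, and that spread differed. For Irx3 the SD was 0.09 in Control and 1.08 in d5 Ghigh, so comparisons with Ghigh look more precise than their own arrays are. A dual reporter mESC line carries GFP at Gsc, a primitive streak and mesendoderm gene, and RedStar at Hhex, an endoderm gene, and all groups come from this single line. The untreated groups are mESCs (ESC), unsorted d2 cells, and populations sorted by reporter signal: d3 and d4 GFP-negative (G-) and GFP-positive (G+) cells, d5 G-, Glow and Ghigh cells, and d6 GFP-positive cells without (G+H-) or with (G+H+) RedStar. In the treatment series, d6 cultures received the carrier DMSO at 1:4000 throughout (Control), DMSO as mESCs and then 2.5 uM EPZ6438 in differentiation (ADE_EPZ), or EPZ6438 as mESCs and then DMSO in differentiation (ES_EPZ). EPZ6438 blocks EZH2, the catalytic subunit of Polycomb repressive complex 2 (PRC2). No reporter sort is named for these d6 cultures. In bulk RNA, fewer cells of a type and less RNA per cell cannot be told apart.

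The labels were checked against markers. The mean log2 intensity of 5 pluripotency markers lay between 13.0 and 13.8 on the ESC arrays and between 7.22 and 7.34 on the d6 G+H+ arrays, while that of 5 ADE markers lay between 5.45 and 5.57 and between 12.9 and 13.1. The number of probes well above background, a flag that the scanner software sets on each array, ran from 25908 to 40428 on the untreated arrays and from 24504 to 34816 on the treatment arrays. The 33 untreated arrays lay on 5 slides and the 9 treatment arrays on 3 others, so levels of the treatment series were not tested against those of the sorted populations.

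Iroquois proteins are homeodomain transcription factors of the TALE class, which differ from typical homeodomains by an extra loop in the DNA-binding fold. They pattern the neural plate, heart, limbs and other organs in the embryo, often downstream of signals such as Wnt, Hedgehog and BMP. Mammals hold them in a pair of clusters that arose by duplication. In the mouse, Irx1, Irx2 and Irx4 lie on chromosome 13 and Irx3, Irx5 and Irx6 on chromosome 8, with long stretches of shared regulatory DNA between the genes. PRC2 methylates histone H3, and its targets in mESCs are typically silent developmental regulators with CpG-rich promoters.

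The promoter sequences of Irx2, Irx3 and Irx4 are shown because many PRC2 targets share a high CpG density, and because the 3 genes behaved differently on the arrays. Each is the 250 bases before the annotated start of the gene in RefSeq (build GRCm38.p6), written in the direction of transcription, with every CpG dinucleotide in capitals. Irx2 is read from chr13:72628570-72628819 (+), Irx3 from chr8:91801655-91801904 (-) and Irx4 from chr13:73260247-73260496 (+).
Irx2: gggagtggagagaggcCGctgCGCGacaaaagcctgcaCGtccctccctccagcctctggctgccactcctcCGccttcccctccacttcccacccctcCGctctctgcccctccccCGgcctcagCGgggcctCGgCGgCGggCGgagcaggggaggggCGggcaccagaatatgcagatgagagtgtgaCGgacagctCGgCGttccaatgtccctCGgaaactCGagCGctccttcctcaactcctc
Irx3: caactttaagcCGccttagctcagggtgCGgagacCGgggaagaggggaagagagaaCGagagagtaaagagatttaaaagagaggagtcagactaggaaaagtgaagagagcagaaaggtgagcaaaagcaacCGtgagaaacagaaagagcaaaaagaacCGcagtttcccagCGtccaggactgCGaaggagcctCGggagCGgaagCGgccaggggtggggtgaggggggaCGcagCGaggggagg
Irx4: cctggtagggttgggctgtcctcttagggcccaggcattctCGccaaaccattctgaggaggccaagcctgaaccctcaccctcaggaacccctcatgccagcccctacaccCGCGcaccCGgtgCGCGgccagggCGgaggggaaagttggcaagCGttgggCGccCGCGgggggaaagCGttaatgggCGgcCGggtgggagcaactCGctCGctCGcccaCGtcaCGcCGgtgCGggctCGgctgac
The Irx4 window held 22 CpG dinucleotides, the Irx2 window 19 and the Irx3 window 13, against a median of 6 over 32851 RefSeq promoters cut to the same length. At least as many were found in 14.8% of these promoters for Irx4, in 19.7% for Irx2 and in 31.5% for Irx3. The GC content was 68.8% for Irx4, 68.4% for Irx2 and 56.0% for Irx3. The motif ACANNTGT, which Iroquois proteins bind and which reads the same on both strands, occurred in none of the 3 windows and in 6.31% of all promoters, and no other motif was searched. The table used here held these 3 of the 6 members; Irx1, Irx5 and Irx6 are named only.

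Detection differed between the genes. Irx4 was well above background on all 42 arrays, Irx1 on 41, Irx3 on 40, Irx5 on 28 and Irx6 on 21. For Irx2, probe A_55_P2125557 was well above background on 30 arrays and probe A_52_P635312 on 10, and the latter was so on all 3 arrays of no group. The range of the 14 group means on the log2 scale was 6.01 for Irx3, 3.82 for Irx5, 2.41 and 0.78 for A_55_P2125557 and A_52_P635312 of Irx2, 2.25 for Irx1, 1.1 for Irx6 and 0.50 for Irx4. The widest ranges were thus those of the neighbours Irx3 and Irx5. Values of different probes are not set against each other as levels, since probes differ in brightness.

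**Figure D1:**
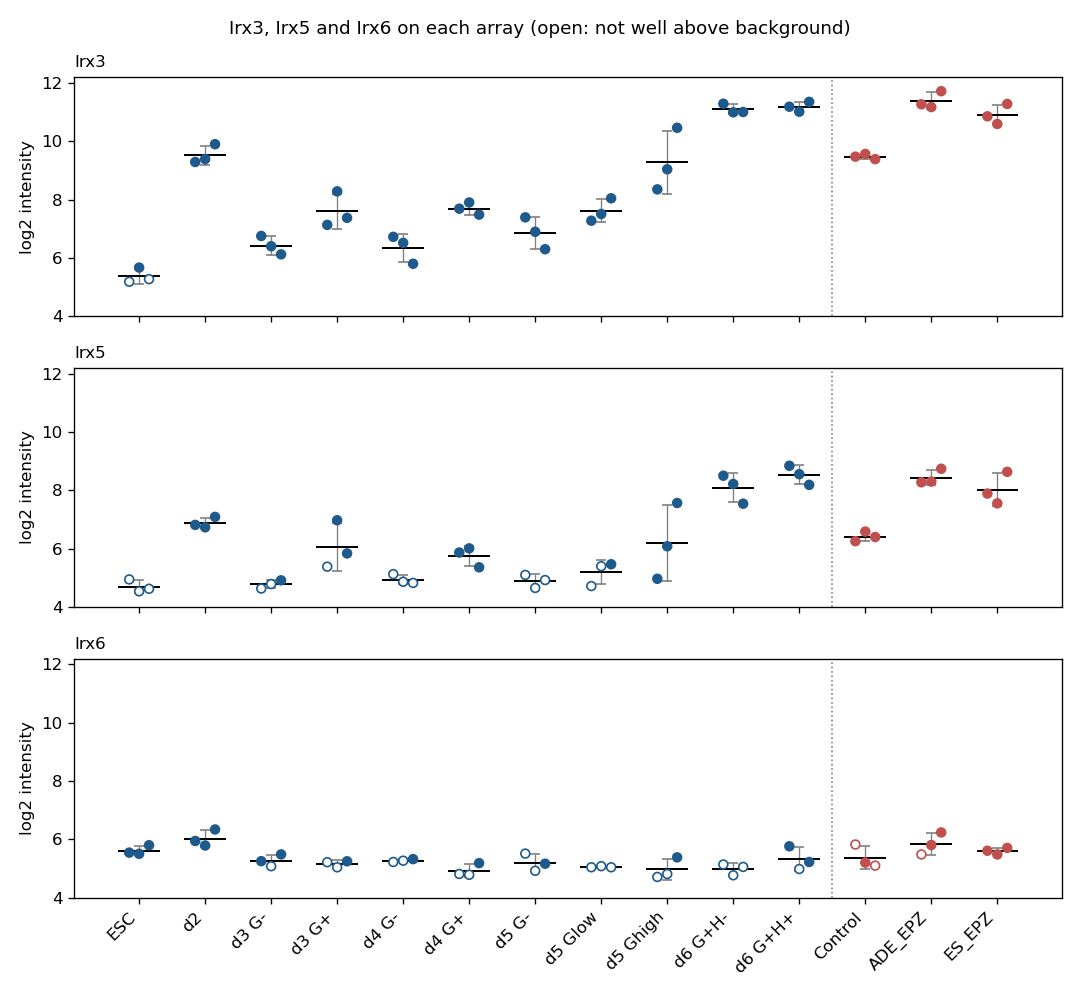
Log2 intensity (vertical axis) of Irx3, Irx5 and Irx6 on each of the 42 arrays, by group (horizontal axis), with untreated groups in blue and the d6 treatment series in red to the right of the dotted line. Black lines are means, grey bars the SD over 3 arrays, and open circles arrays not well above background. Irx3 and Irx5 are higher at d2 than in ESC and are highest at d6 among the untreated groups, with the 3 d5 Ghigh arrays spread widely, while Irx6 stays between 4.72 and 6.34.

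Irx3, which is known from neural and limb patterning, was at or near background in mESCs, with log2 intensities of 5.19, 5.68 and 5.28, of which only the array of replicate 2 was well above background. In d2 cells it measured 9.29, 9.39 and 9.90. The d2 and ESC arrays did not overlap, and the log2 fold change was 4.15 ± 0.35 (SE of the limma fit, as for all errors of changes; limma adjusted p = 8.62e-10). Irx5, its neighbour, which acts in heart and retina, measured 4.95, 4.54 and 4.63 in mESCs, where no array was well above background. It measured 6.82, 6.74 and 7.09 in d2 cells, a log2 fold change of 2.18 ± 0.39 (limma adjusted p = 0.000289), or at least 4.38-fold higher when the ESC arrays are taken at the higher of their own signal and the detection floor. These were the 2 members called between d2 and ESC, where 0.375% of 23171 RefSeq accessions were called higher, where a call needs a limma adjusted p of 0.01 or less and a log2 change of 1.5 or more in size. On the slides that held both groups the differences were 3.72 and 4.62 for Irx3 and 2.19 and 2.46 for Irx5. The mean of 5 neural markers, another lineage that uses Irx3, lay between 8.22 and 8.34 on the ESC arrays and between 8.98 and 9.25 on the d2 arrays, with Zic1 and Sox3 called higher and all 5 markers well above background on every array of both groups, and its part in the result was not tested. With a background offset of 50 in place of 10, the Irx5 change was 1.27 and was no longer called.

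Both genes were lower again at d3. In d3 G- cells Irx3 measured 6.76, 6.41 and 6.13, all below the d2 arrays, and fell by 3.10 ± 0.35 on the log2 scale from d2 (limma adjusted p = 4.75e-07). Irx5 measured 4.64, 4.79 and 4.92, with 1 array well above background, and fell by 2.10 ± 0.39 (limma adjusted p = 0.000654). Between d3 G- and d2, 0.293% of accessions were called lower, and these 2 members were among them; with the offset of 50 the Irx5 change was -1.24 and not called. In d3 G+ cells Irx3 measured 7.14, 8.29 and 7.38 and fell by 1.93 ± 0.35 from d2 (limma adjusted p = 8.75e-05), the only member called in a comparison where 2.73% of accessions were called lower. Irx5 measured 5.39, 6.98 and 5.84 in d3 G+ cells, so that replicate 2 overlapped the d2 arrays.

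Sorting by the Gsc reporter asks whether these genes differ between cells with and without reporter signal. The G- cells held streak markers too. At d3 the mean of 4 primitive streak markers lay between 9.99 and 10.2 on the G- arrays and between 12.3 and 12.7 on the G+ arrays. On the ESC arrays it lay between 5.83 and 6.22. Every G+ array of Irx3 was above every G- array at d3 (log2 fold change 1.17 ± 0.35, limma adjusted p = 0.0456) and at d4 (1.34 ± 0.35, limma adjusted p = 0.0148), where it measured 6.73, 6.52 and 5.81 in G- and 7.69, 7.91 and 7.49 in G+ cells. Irx5 did not overlap either, with a difference of 1.29 ± 0.39 at d3 (limma adjusted p = 0.0531) and 0.81 ± 0.39 at d4 (limma adjusted p = 0.357); its d4 G- arrays, at 5.13, 4.87 and 4.83, were all at background. None of these reached the threshold, and the other 4 members differed by at most 0.36 in size. By limma 0 members were called between G+ and G- at d3, where 1.8% of accessions were called in either direction. At d4 0 were called, where 2.21% of accessions were. At each day 2 member probes, those of Irx3 and Irx5, had an unadjusted limma p under 0.05, beside 6930 of all probes at d3 and 7461 at d4. How far this difference moved from d3 to d4 was tested as an interaction and was not called for any member or any accession, 0% of those tested. An unadjusted limma p under 0.05 was found for 0 member probes and 1619 of all probes. On values scaled to the 75th percentile instead of quantile normalised, the d3 difference of Irx5 was 2.83 and was called.

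At d5 Irx3 was highest in the cells with the strongest Gsc reporter signal. It measured 7.40, 6.90 and 6.30 in G-, 7.28, 7.51 and 8.05 in Glow and 8.36, 9.04 and 10.47 in Ghigh cells. The Ghigh arrays lay above all others, and the change from G- to Ghigh was 2.42 ± 0.35 (limma adjusted p = 1.26e-05), the only member called where 0.954% of accessions were called higher. Fitted on these 2 groups alone, that change was not called (limma adjusted p = 0.0909). The step from G- to Glow was 0.75 ± 0.35 (limma adjusted p = 0.464), and the step from Glow to Ghigh was 1.67 ± 0.35 (limma adjusted p = 0.0132). By limma 0 members were called in either step, against 0.725% and 0.259% of accessions in either direction. An unadjusted limma p under 0.05 was found for 1 and 2 member probes and for 5241 and 5016 of all probes. Without d5 Ghigh replicate 1 the step from Glow to Ghigh was 2.14 (limma adjusted p = 0.000867), and without d5 Glow replicate 3 it was 1.89 (limma adjusted p = 0.00652), both called. Irx5 measured 4.97, 6.09 and 7.57 in Ghigh cells, a wider spread than in any other group, and 5.10, 4.66 and 4.93 in G- cells, where no array was well above background. Its change of 1.31 ± 0.39 (limma adjusted p = 0.041) was not called, but without Ghigh replicate 1 it was 1.93 (limma adjusted p = 0.00101) and called.

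The 3 Ghigh arrays differed among themselves in other genes too. Replicate 3, the highest in Irx3 and Irx5, had a mean of 5 ADE markers of 12.8, against 11.3 and 11.5 for replicates 1 and 2. Its mean of 5 mesoderm markers was 7.76, against 9.99 and 9.65, and that of 3 trophoblast markers 7.26, against 9.42 and 9.19. The part of these differences in the Irx3 and Irx5 values was not tested. From d4 G+ to d5 Ghigh the change of Irx3 was 1.59 ± 0.35 (limma adjusted p = 0.00485), called where 0.669% of accessions were called higher. That call was lost without d5 Ghigh replicate 3 (1.00), without d4 G+ replicates 1 (1.59), 2 (1.70) or 3 (1.49), and with slide as a fixed block (1.45). Irx2 at A_55_P2125557 was called lower in that comparison without d4 G+ replicate 1 (-1.57) or without d5 Ghigh replicate 3 (-1.54). By limma 0 members were called from d3 to d4 within G+ or within G- cells, from d4 to d5 within G- cells or from d4 G+ to d5 Glow. In these comparisons 0.0345%, 0.00863%, 0.0259% and 0.129% of accessions were called. An unadjusted limma p under 0.05 was found for 0, 0, 1 and 1 member probes and for 3183, 3123, 4115 and 5449 of all probes.

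Both genes were highest at d6. Irx3 measured 11.29, 10.996 and 11.01 in G+H- cells and 11.19, 11.02 and 11.35 in G+H+ cells. All 6 values lay above every earlier array, including those of d2. From Ghigh, the log2 fold change was 1.81 ± 0.35 to G+H- (limma adjusted p = 0.000707) and 1.90 ± 0.35 to G+H+ (limma adjusted p = 0.00016). Irx5 measured 8.50, 8.22 and 7.54 in the G+H- fraction and 8.85, 8.56 and 8.19 in the G+H+ fraction, 1.88 ± 0.39 and 2.32 ± 0.39 above Ghigh (limma adjusted p = 0.00168 and 5.3e-05). These 2 members were called higher in both comparisons, where 1.36% and 2.68% of accessions were. The Ghigh array of replicate 3 reached the lowest G+H- array for Irx5, and on the slide that held both the difference was -0.02, against 2.13 on another slide; for Irx3 these differences were 0.54 and 1.95. Without Ghigh replicate 1, the changes to G+H- were 1.34 for Irx3 and 1.26 for Irx5 and that to G+H+ was 1.43 for Irx3, none of them called, and that to G+H- of Irx5 was also not called without Ghigh replicate 2 (1.82) or G+H- replicate 1 (1.67). Fitted on the compared groups alone, no member was called in these comparisons.

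Of the changes against mESCs, those at d6 were the largest for both genes. Irx3 was higher by 5.72 ± 0.35 in G+H- cells and by 5.80 ± 0.35 in G+H+ cells (limma adjusted p = 6.49e-15 and 3.83e-15). Irx5 was 3.38 ± 0.39 and 3.82 ± 0.39 higher (limma adjusted p = 1.63e-08 and 1.08e-09), which is at least 10.1-fold and at least 13.7-fold. Both calls held when any of the arrays of the compared groups was left out, and with slide as a fixed block the G+H+ changes were 6.02 for Irx3 and 3.94 for Irx5. Scaled to the 75th percentile, they were 6.97 and 6.30. Between G+H+ and ESC 3 of the 6 members were called, Irx3 and Irx5 higher and Irx2 lower, against 10.9% of accessions in either direction, 5.66% higher and 5.28% lower. Irx6 changed by -0.29 ± 0.21 in the same comparison and was not called. The median change over the 3 probes of the Irx3, Irx5 and Irx6 locus, which is the Irx5 value, was 3.82, that over the probes of the Irx1, Irx2 and Irx4 locus -0.32, and that over all probes 0.00.

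The Hhex reporter fractions of d6 were compared next. The difference between G+H+ and G+H- was 0.09 ± 0.35 for Irx3 and 0.44 ± 0.39 for Irx5 (limma adjusted p = 1.00 for both), with overlapping arrays. By limma 0 of 6 members and 0% of accessions were called in that comparison, with 0 member probes and 2514 of all probes at an unadjusted p under 0.05.

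In order of the mean, Irx3 ran from ESC through d4 G-, d3 G-, d5 G-, d3 G+, d5 Glow, d4 G+, d5 Ghigh and d2 to d6 G+H- and d6 G+H+. Among neighbours in that order, only the steps from d4 G+ to d5 Ghigh and from d2 to d6 G+H- (1.57, limma adjusted p = 0.000561) were called. The order came from these same means, so the values themselves chose which pairs of neighbours were tested. The step from d2 to d6 G+H- was not put through the alternatives, and no share of accessions called is given for it. Irx5 ran from ESC through d3 G-, d5 G-, d4 G-, d5 Glow, d4 G+, d3 G+, d5 Ghigh and d2 to d6 G+H- and d6 G+H+, and no neighbours in that order differed by a call. Its widest step was from d2 to d6 G+H- (1.21, limma adjusted p = 0.0192), where the arrays did not overlap. In both genes the 3 G- populations and mESCs held the lowest 4 places, and the G+ populations of d3 and d4 lay between them and Ghigh.

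Irx6, the remaining gene of the chromosome 8 locus, stayed close to background. It was well above background on all arrays in ESC (5.55, 5.51 and 5.80), d2 (5.95, 5.79 and 6.34) and ES_EPZ (5.61, 5.49 and 5.71) alone. Its largest change against mESCs was a log2 difference of -0.69 in d4 G+ cells, and no comparison of the main fit called it. On values scaled to the 75th percentile that difference was -2.09 (limma adjusted p = 0.000443), and Irx6 was called lower there, in d3 G+ against d2 (-1.85) and against ESC in d5 Glow (-1.59) and d6 G+H- (-1.54).

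**Figure D2:**
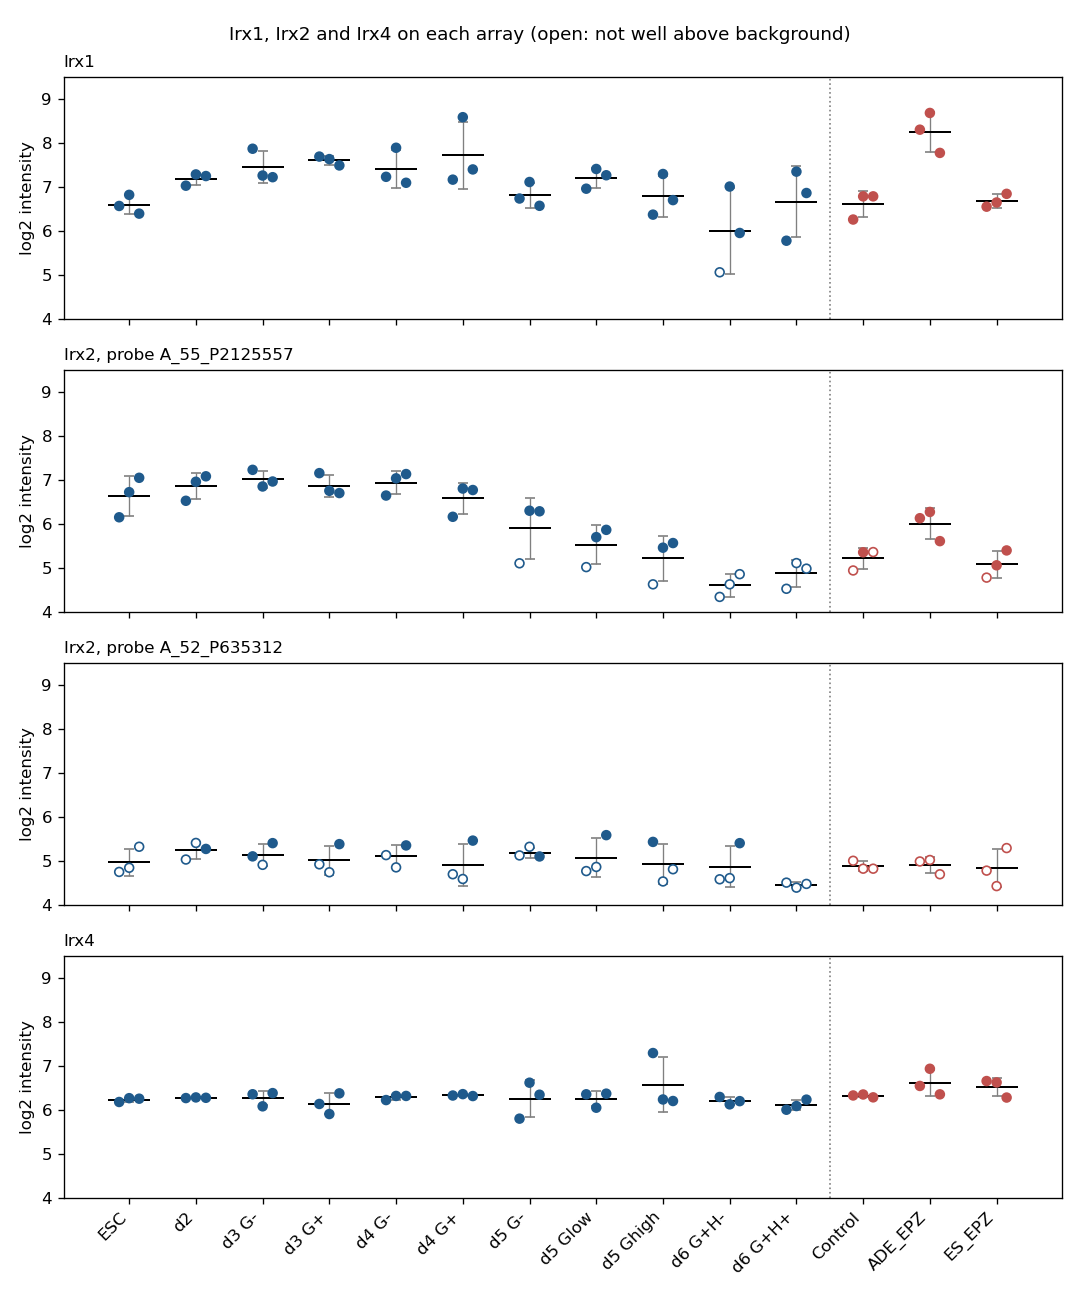
Log2 intensity (vertical axis) of Irx1, both probes of Irx2, and Irx4 on each of the 42 arrays, by group (horizontal axis), drawn as for Irx3, Irx5 and Irx6. Within the treatment series Irx1 is highest on the ADE_EPZ arrays. Among the untreated groups probe A_55_P2125557 of Irx2 has its lowest means at d6. Irx4 varies by 0.50 between group means.

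The genes of the chromosome 13 locus had other profiles. Irx1, known from lung, heart and limb development, measured 6.57, 6.82 and 6.39 in mESCs, and its highest untreated mean was in d4 G+ cells, at 7.17, 8.59 and 7.40. In d6 G+H- cells it measured 5.06, 7.01 and 5.95, with replicate 1 not well above background, and in G+H+ cells 5.78, 7.35 and 6.86. Replicate 2 was the highest array of every untreated group except d3 G- and d3 G+, where replicate 1 was. No untreated comparison called Irx1, with changes against mESCs from -0.59 to 1.12.

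Irx2, which overlaps Irx1 in many tissues, was read by probes that did not agree. At A_55_P2125557 it measured 6.15, 6.72 and 7.05 in mESCs and stayed between 6.16 and 7.23 on every array of d2, d3 and d4. At d5 it measured 5.10, 6.30 and 6.29 in G-, 5.02, 5.70 and 5.87 in Glow and 4.63, 5.46 and 5.57 in Ghigh cells, so that the Glow and Ghigh arrays, but not all G- arrays, lay below those of mESCs and d2 to d4. At d6 it measured 4.34, 4.63 and 4.86 in the G+H- fraction and 4.52, 5.11 and 4.98 in the G+H+ fraction, below every ESC array and not well above background on any of the 6 arrays. The log2 fold change against mESCs was -2.03 ± 0.29 in G+H- (limma adjusted p = 1.16e-06) and -1.77 ± 0.29 in G+H+ cells (limma adjusted p = 1.04e-05), at least 4.06-fold and at least 3.28-fold lower. With Irx3 and Irx5, 3 members were called in G+H- cells, where 4.94% of accessions were called higher and 5.05% lower. Without background correction the changes of Irx2 were -1.41 and -1.24, and neither was called. In Ghigh cells the change was -1.43 and not called, but it was called without ESC replicate 1 (-1.67) and without Ghigh replicate 2 (-1.55) or 3 (-1.60). At A_52_P635312, Irx2 lay between 4.39 and 5.59 on all arrays and was not called, with changes of -0.11 (G+H-) and -0.51 (G+H+).

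Irx4, which marks heart ventricles, lay between 5.80 and 7.30 on all arrays. Its changes against mESCs ran from -0.13 to 0.34. The value of 7.30 came from d5 Ghigh replicate 1 and stood apart from the others of its group.

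**Figure D3:**
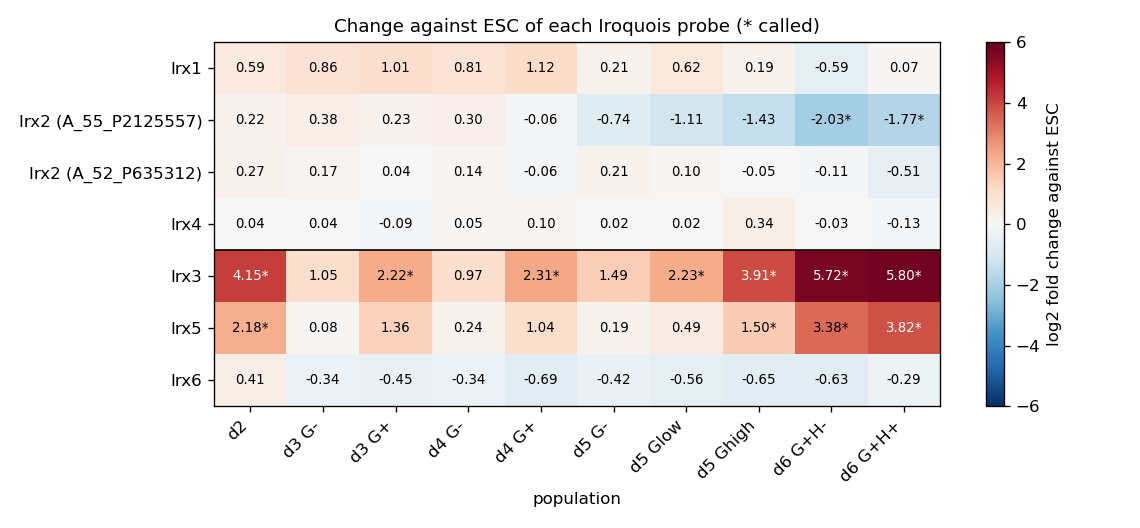
Log2 fold change against ESC of each probe (rows) in the 10 other untreated populations (columns), from the limma fit, with an asterisk where the change was called. Red is higher and blue lower than ESC, and the black line separates the Irx1, Irx2 and Irx4 locus from the Irx3, Irx5 and Irx6 locus. The calls are those of Irx3 at d2, d3 G+, d4 G+, d5 Glow, d5 Ghigh and d6, of Irx5 at d2, d5 Ghigh and d6, and of A_55_P2125557 of Irx2 at d6.

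Further calls against mESCs were those of Irx3 in d3 G+ (2.22), d4 G+ (2.31), d5 Glow (2.23) and d5 Ghigh (3.91) cells, all ± 0.35, in comparisons where 2.86%, 3.03%, 3.47% and 3.55% of accessions were called higher. Irx5 in Ghigh cells, at 1.502 ± 0.39 (limma adjusted p = 0.0042), was just past the threshold, and on the 3 slides holding both groups its difference was 1.14, 0.43 and 2.94. It was not called without ESC replicates 2 (1.42) or 3 (1.46) or without Ghigh replicates 2 (1.56) or 3 (0.82). By limma 0 members were called against mESCs in the 3 G- populations, where the Irx3 changes were 1.05 at d3, 0.97 at d4 and 1.49 at d5. In each, 2 of the 7 member probes had an unadjusted limma p under 0.05, beside 10708, 10296 and 11510 of all 55681 probes. In these 3 comparisons 2.37%, 3.16% and 4.29% of accessions were called. The d5 G- change of Irx3 was called without ESC replicate 2 (1.63) and without d5 G- replicate 3 (1.77).

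The treatment series asks how blocking PRC2 before or during differentiation alters d6 cells. Irx3 measured 9.48, 9.57 and 9.39 in Control, 11.27, 11.18 and 11.72 in ADE_EPZ and 10.86, 10.60 and 11.28 in ES_EPZ cultures, so that all 6 treated arrays lay above all 3 controls. Irx5 measured 6.26, 6.59 and 6.40 in Control, 8.28, 8.30 and 8.74 in ADE_EPZ and 7.89, 7.56 and 8.64 in ES_EPZ cultures, again without overlap. Irx1 measured 6.26, 6.79 and 6.79 in Control, 8.31, 8.69 and 7.78 in ADE_EPZ and 6.55, 6.65 and 6.84 in ES_EPZ cultures. The ADE_EPZ arrays of Irx1 stood above both other regimens, which overlapped each other.

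Against Control, ADE_EPZ cultures were called for 3 of the 6 members, all higher, in a comparison where 1.88% of accessions were called higher and 0.79% lower. The log2 fold change was 1.91 ± 0.35 for Irx3 (limma adjusted p = 0.000241), 2.02 ± 0.39 for Irx5 (limma adjusted p = 0.000485) and 1.64 ± 0.37 for Irx1 (limma adjusted p = 0.00259). Each slide of the series held 1 array of each regimen. The differences within slides were 2.15, 1.88 and 1.70 for Irx3, 2.15, 1.88 and 2.04 for Irx5 and 0.99, 1.52 and 2.43 for Irx1. The calls of Irx3 and Irx5 held when any array of the compared groups was left out, while that of Irx1 was lost without ADE_EPZ replicate 1 (1.62, limma adjusted p = 0.0125), without ADE_EPZ replicate 2 (1.43, limma adjusted p = 0.0247) and without Control replicate 1 (1.47, limma adjusted p = 0.0228), and also without background correction (1.46) or with an offset of 50 (1.32). The remaining members were not called. Irx2 at A_55_P2125557 measured 4.94, 5.35 and 5.36 in Control and 6.13, 6.27 and 5.61 in ADE_EPZ cultures, which did not overlap, and differed by 0.79 ± 0.29 (limma adjusted p = 0.0881), while A_52_P635312 differed by 0.02. The former difference was 1.94 on values scaled to the 75th percentile (limma adjusted p = 0.0152) and had a limma adjusted p of 0.019 with the replicate block, and was called in neither. Irx6 differed by 0.47 ± 0.21 and Irx4 by 0.29 ± 0.20 (limma adjusted p = 0.187 and 0.484).

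**Figure D4:**
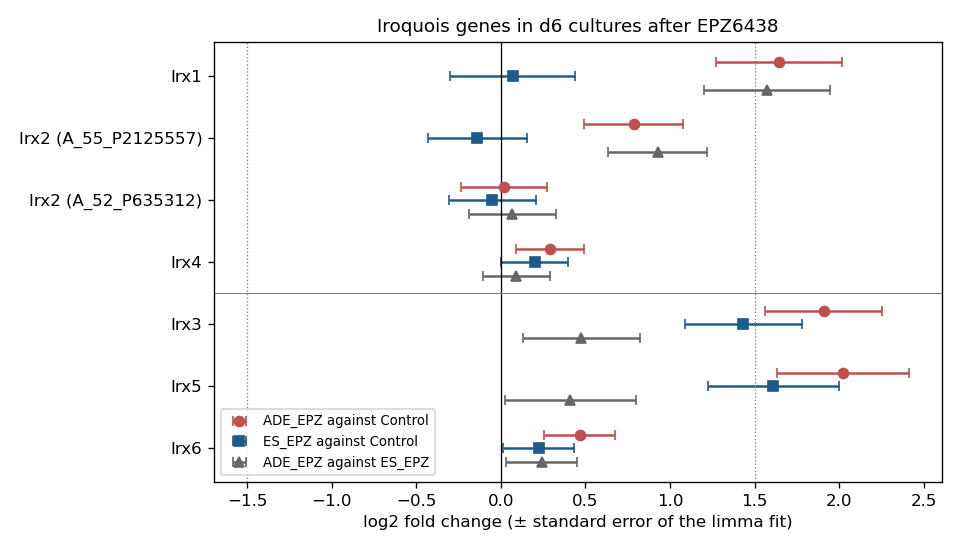
Log2 fold change (horizontal axis) of each Iroquois probe (rows) between the d6 regimens, with the standard error of the limma fit as bars and dotted lines at the threshold of 1.5. Irx3 and Irx5 lie above 0 in both EPZ6438 regimens against Control, at 1.91 and 2.02 for ADE_EPZ and 1.43 and 1.61 for ES_EPZ, while Irx1 lies at 1.64 for ADE_EPZ and 0.07 for ES_EPZ.

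Against the same Control arrays, ES_EPZ cultures differed by 1.43 ± 0.35 for Irx3 (limma adjusted p = 0.0227) and 1.61 ± 0.39 for Irx5 (limma adjusted p = 0.0228), and neither was called. Within slides these differences were 1.71, 1.47 and 1.12 for Irx3 and 2.05, 1.49 and 1.30 for Irx5, all positive. By limma 0 members were called, in a comparison where 0.419% of accessions were called. An unadjusted limma p under 0.05 was found for 2 member probes and 7044 of all probes. With slide as a random block the Irx5 difference was called (limma adjusted p = 0.00835). Irx1 differed by 0.07 ± 0.37, with within-slide differences of 0.06, -0.24 and 0.39, and Irx2 at A_55_P2125557 by -0.14 ± 0.29.

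The regimens were also compared directly. ADE_EPZ exceeded ES_EPZ by 1.57 ± 0.37 for Irx1 (limma adjusted p = 0.0342), by 0.93 ± 0.29 for Irx2 at A_55_P2125557 (limma adjusted p = 0.171), by 0.48 ± 0.35 for Irx3 (limma adjusted p = 0.851) and by 0.41 ± 0.39 for Irx5 (limma adjusted p = 0.942). By limma 0 members were called, where 0.125% of accessions were called. An unadjusted limma p under 0.05 was found for 2 member probes and 4995 of all probes. Arrays of the same number shared a slide here. The replicate block fits 1 effect per replicate number over all arrays of both series. With this block the Irx1 difference of 1.57 was called (limma adjusted p = 0.00426). It was not called with slide as a fixed block (limma adjusted p = 0.0261) or as a random block (limma adjusted p = 0.0122), nor with scaling to the 75th percentile (1.88, limma adjusted p = 0.0899). The difference was 0.93, 1.75 and 2.04 within the 3 slides.

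Marker genes of several cell types moved with treatment as well. The mean of the 5 ADE markers lay between 11.2 and 11.8 on the Control arrays, between 12.4 and 12.8 in ADE_EPZ and between 12.02 and 12.49 in ES_EPZ cultures, with Hhex called higher in ADE_EPZ. The mean of the 5 mesoderm markers, all well above background on every array of the 3 regimens, lay between 9.29 and 9.33, between 8.03 and 8.49 and between 8.22 and 8.90, with Kdr and Meox1 called lower in ADE_EPZ. Of 4 primitive streak markers, Eomes and Mixl1 were called lower in ADE_EPZ, and of 5 pluripotency markers Zfp42 was called higher. Neural markers had 1 of 5 called, Zic1, and their mean lay between 8.58 and 8.91 in Control and between 8.50 and 8.72 in ADE_EPZ cultures. The mean of 3 trophoblast markers lay between 7.50 and 8.48 in Control and between 6.25 and 7.47 in ES_EPZ cultures, and that of 3 visceral endoderm markers between 6.70 and 7.18 in Control and between 7.19 and 7.67 in ADE_EPZ cultures, without overlap in either case but with no marker of these lists called. The part of these shifts in the Irx1, Irx3 and Irx5 changes was not tested. In the sorted d6 fractions, which lay on other slides, Irx3 and Irx5 were called higher than in mESCs and Irx1 was not called (0.07 in G+H+ and -0.59 in G+H-). How those changes relate to the treatment was not tested.

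Across the 14 group means the profiles of Irx3 and Irx5 correlated at r = 0.968, and each ranked 1 among the 15515 detected genes compared with the other. Over the 11 untreated groups alone the value was 0.962. Correlations here are descriptions over group means of the same arrays. Irx1 and Irx2 of the other locus correlated at 0.64, which placed Irx2 at rank 138 of likeness to Irx1 and Irx1 at rank 2765 of likeness to Irx2, while Irx2 correlated at -0.70 with Irx3 and -0.61 with Irx5, and Irx1 at -0.17 with Irx3 and -0.13 with Irx5. Irx4 and Irx6 correlated with no member above 0.34. Several of these values differed over the 11 untreated groups alone. There Irx1 correlated at 0.75 with Irx2, -0.48 with Irx3 and -0.49 with Irx5, and Irx2 at -0.73 with Irx3 and -0.65 with Irx5. Irx4 correlated there at -0.08 with Irx3, and Irx6 at 0.44 with Irx2.

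Outside the family, the genes most like Irx3 were Cab39l (0.963), 0610009L18Rik (0.947) and Slc10a3 (0.943). Those most like Irx5 were Gm10767 (0.958), Crnde (0.957), a long noncoding RNA gene that lies beside Irx5, and Alx1 (0.956), a homeobox gene of the craniofacial mesenchyme. Irx1 was most like Nsg1 (0.899), Tbx15 (0.816) and Vipr1 (0.807), and Irx2 most like Aen (0.971), Med7 (0.962) and Mark1 (0.954). For Irx4 they were Olfr1360 (0.916), Vpreb2 (0.868) and Sgca (0.864), and for Irx6 Gdf15 (0.912), Ccs (0.899) and Rec8 (0.883), both genes of narrow range on these arrays. Over the 11 untreated groups alone the values were 0.91, 0.68 and 0.89 for the 3 genes named for Irx1. For those named for Irx4 they were 0.94, 0.78 and 0.90.

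No protein-coding gene lies inside either locus, and the 5 nearest on each side were read as well. Around Irx3, Irx5 and Irx6, all 10 neighbours were measured. Between d2 and ESC and between G+ and G- at d3 and d4, 0 were called, beside 1.69%, 1.8% and 2.21% of accessions. In ADE_EPZ against Control, ES_EPZ against Control and ADE_EPZ against ES_EPZ 0 were called, beside 2.67%, 0.419% and 0.125%. At these shares a count of 0 in 10 genes cannot set the neighbours apart from other genes. Chd9, a chromatin remodeller, was called lower in d6 G+H+ than in ESC (-2.42 ± 0.18, limma adjusted p = 7.31e-13), opposite in sign to Irx3 and Irx5. Around Irx1, Irx2 and Irx4, 9 of 10 neighbours were measured, and Ube2ql1, a ubiquitin-conjugating enzyme gene, was called higher in d4 G+ than in G- (1.70 ± 0.40, limma adjusted p = 0.00655) and in d6 G+H+ than in ESC (3.66 ± 0.40, limma adjusted p = 4.58e-09). None of the 9 was called between regimens, where the shares of accessions were those given above.

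The other TALE homeobox genes, among them the Meis and Pknox genes, whose proteins act as partners of Hox proteins, and the Tgif and Mkx genes, were all measured (12 of 12). In each of the 3 comparisons of the regimens 0 of the 12 were called, beside 2.67% (ADE_EPZ against Control), 0.419% (ES_EPZ against Control) and 0.125% of accessions. Likewise 0 were called between G+ and G- at d4, at d5 between Glow and G- or Ghigh and Glow, or between the d6 fractions. There 2.21%, 0.725%, 0.259% and 0% of accessions were called. At these shares a count of 0 in 12 genes cannot set the list apart from other genes. Meis2 was higher at d2 than in ESC (2.51 ± 0.51, limma adjusted p = 0.00145). Between d6 G+H+ and ESC, Pbx3 (2.19) was higher and Meis1 (-1.81) and Meis2 (-2.03) were lower, so that Meis2, unlike Irx3 and Irx5, was higher at d2 and lower at d6 relative to mESCs.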

How the data were processed

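The deposited values are log2 intensities of 1-colour Agilent arrays (SurePrint G3 mouse design, annotated by the submitters to mm9). Per the file headers, Agilent Feature Extraction 11.0.1.1 gave spot intensities, and the authors took median signals, corrected them with normexp at an offset of 10 and quantile normalised all 42 arrays. The deposited log2 values were used here, after spots of a probe were averaged. They tracked values recomputed from the scanner intensities (lowest correlation per array 0.999979). No member spot was marked as an outlier or saturated. The annotation gave a RefSeq accession for 29123 probes, and 21865 of 23171 accessions were named through a RefSeq table of GRCm38.p6.

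limma 3.58.1 in R 4.3.3 fitted 1 mean per group over all arrays, with Benjamini-Hochberg adjustment over all 55681 probes of a comparison. Calls needed an adjusted p no higher than 0.01 and a log2 change no smaller than 1.5 in size, thresholds that the authors used. A member was called where 1 of its probes was. The fit was tested on simulated data. The number of arrays limits the precision, and an exact test of 3 arrays against 3 cannot go below p = 0.1.

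All 6 members were named with every probe, called genes of the TALE and neighbour lists by size (1 of the TALE list is not reported here), and for each member the 3 genes of highest correlation among those well above background on all arrays of a group. The members and lists were chosen with earlier results of these data known. Same-numbered arrays deviated together, with every correlation over 0.1, for G+ against G- at d3 and d4, the d5 steps and the d6 fractions (0.20 to 0.67). The same held for ADE_EPZ against ES_EPZ (0.22 to 0.30). The replicate numbers thus appear to pair the arrays in these comparisons. The main fit did not use this pairing, so its p-values for them ignore it. Alternatives were other scalings, background corrections, filters, thresholds, blocks and samples left out.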

Additional observations from a re-analysis of the deposited data

How the results depend on the processing

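Counts of members called are given here, with the main value before the alternative. No called change of a member reversed its sign under any alternative. In 11 of 29 comparisons the count stayed within 1.5 times under every alternative and did not change with any array left out. Among them were d6 G+H+ against ESC (3, between 2 and 3) and d6 G+H- against ESC (3, between 2 and 4). In all the others of these the count was 0 throughout. ADE_EPZ against Control (3, between 2 and 3) also stayed within 1.5 times, but its count reached 2 when arrays were left out. Scaling to the 75th percentile gave 1 for d3 G+ against G- (from 0), 2 for d3 G+ against d2 (from 1), and against ESC 2 for d3 G+ (from 1), 3 for d4 G+ (from 1), 1 for d4 G- (from 0), 1 for d5 G- (from 0) and 2 for d5 Glow (from 1), and also 2 for d5 Ghigh against G- (from 1), 0 for d5 Ghigh against d4 G+ (from 1) and 1 for d6 G+H- against d5 Ghigh (from 2). An offset of 50 gave 1 for d2 against ESC, d3 G- against d2, d5 Ghigh against ESC and d6 G+H- against d5 Ghigh (each from 2) and 0 for d5 Ghigh against d4 G+; without background correction d5 Ghigh against ESC gave 1 and d5 Ghigh against d4 G+ gave 0. Fitting the compared groups alone gave 1 for d5 Ghigh against ESC (from 2) and 0 for d5 Ghigh against G- and against d4 G+ (from 1) and for both d6 fractions against d5 Ghigh (from 2). d5 G- against ESC gave 1 (from 0) with quantile normalisation within each series and with slide as a fixed or random block, ES_EPZ against Control gave 1 (from 0) with slide as a random block, and d5 Ghigh against d4 G+ gave 0 with slide fixed. An adjusted p of at most 0.05 gave 1 (from 0) for ADE_EPZ against ES_EPZ, ES_EPZ against Control and d5 Ghigh against Glow, and the filter on probes well above background gave 1 for the latter.

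Leaving out 1 array at a time gave 1 to 2 members for d3 G+ against ESC (2 without d3 G+ replicate 1), 0 to 1 for d5 G- against ESC, 1 to 3 for d5 Ghigh against ESC, 1 to 2 for d5 Ghigh against G-, 0 to 1 for d5 Ghigh against Glow, 0 to 1 for d5 Ghigh against d4 G+, 1 to 2 for d6 G+H+ against d5 Ghigh and 0 to 2 for d6 G+H- against d5 Ghigh. The cause of these changes was not tested.

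The replicate block fits 1 effect per replicate number, shared by all 42 arrays of both series. It therefore does not pair the arrays of a single comparison. This block gave 1 member (Irx1) for ADE_EPZ against ES_EPZ, from 0, and changed no other count by over 1.5 times. For d6 G+H+ against ESC, ADE_EPZ against Control and ES_EPZ against Control not every pair of numbers correlated above 0.1 (lowest -0.05, 0.07 and -0.06), so arrays share only a number there.

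Changes against groups near background moved with the background treatment and the scaling. Over 11 alternatives, Irx5 in d2 against ESC ran from 1.27 to 4.54, Irx3 in d2 against ESC from 3.24 to 5.40, Irx3 in d6 G+H+ against ESC from 4.85 to 6.97, Irx2 in d6 G+H+ against ESC from -3.44 to -1.03 and Irx6 in d4 G+ against ESC from -2.09 to -0.35. Irx3 in ADE_EPZ against Control, where every array was well above background, ran from 1.86 to 1.91. The other comparisons beside the 9 main ones were put through these alternatives after the files had been read.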
